A study of Canis lupus familiaris with 6 samples.

Results

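The genes considered here are those that receive and transmit interferon signals: the receptor chains IFNAR1, IFNAR2, IFNGR1 and IFNGR2, the kinases JAK1 and JAK2, and the transcription factors STAT2, IRF9 and IRF1. They were chosen by symbol, and every non-control probe that the array annotates with one of the 9 symbols was taken. This gave 13 probes for 6 genes, of 14236 gene symbols on the array. IFNAR1, IFNAR2 and IFNGR2 are not analysed here, since no probe carried their symbols. RNA came from MDCK-pTR GFP-RasV12 cells, a dog kidney epithelial line (Madin-Darby canine kidney, MDCK) in which tetracycline induces GFP-tagged RasV12. All samples had 24 h of tetracycline and were sorted for GFP. The 3 "alone" samples were RasV12 cells in single culture and the 3 "mixed" samples were RasV12 cells grown among normal MDCK cells at 10 MDCK cells to 1 RasV12 cell, although the source label of mixed replicate 2 gives 100 to 1. One protocol among the labels speaks of cells that also carry a β-catenin mutant; the titles and the paper give RasV12 cells without it, as used here. The labels do not say whether the replicates were separate cultures, so p-values measure only the spread between these samples, which may be technical.

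Type I interferons bind the IFNAR1 and IFNAR2 chains, and interferon-γ binds IFNGR1 and IFNGR2. JAK kinases held on the inside of these receptors then phosphorylate STAT proteins. Type I interferon drives the assembly of the complex ISGF3, of which STAT2 and IRF9 are subunits and which enters the nucleus and switches on antiviral genes, while interferon-γ has IRF1 among its early products. Most of this machinery is present before any signal and is controlled by phosphorylation, which an mRNA array does not measure, but STAT2, IRF9, IRF1 and IRF7 are themselves interferon-induced in many cells. In epithelia the pathway is best known as a defence against viruses.

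There was 1 one-colour array for each sample. Values are log2 processed intensities minus the 75th percentile of the array, which lay between 592 and 700 units, so 0 is the level of a fairly bright probe and each step of 1 is a doubling. These levels are not compared between probes, which bind with different strength. Between 60.8% and 66.4% of the 43603 probes were well above background, and 3 arrays against 3 limit the precision. The alone arrays shared 1 slide and 1 recorded scan date, and the mixed arrays another of each. The effects of slide and scan and that of mixed culture cannot be told apart. Alone replicate 1 stood apart from the other alone arrays. For the 35 ISGF3 target genes tested, the median deviation from the mean of all arrays was -0.04 on alone replicate 1, against -0.73 and -0.59 on alone replicates 2 and 3 and 0.32 to 0.52 on the mixed arrays. Of the epithelial markers, 8 had probes and all 8 were tested (0 past the threshold in the comparison below, 4 at an unadjusted p under 0.05, limma, where 32.7% of all tested gene symbols were; 0 by the methods' t-test after adjustment). The median deviation of these 8 genes was 0.09 on alone replicate 1, -0.20 and -0.18 on alone replicates 2 and 3, and 0.03 to 0.12 on the mixed arrays. Of 7 leukocyte markers, 4 were well above background on each array of 1 group or both and were tested. Only PTPRC was well above background on 0 arrays.

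The probes that the results turn on are printed 5′ to 3′ as the array's annotation gives them, with canFam3 positions. The pair for IRF9 is shown because its members share 17 bases, in capitals, and their differences had opposite signs. The STAT2 and JAK2 probes are the only ones for those genes.
IRF9 probe 1: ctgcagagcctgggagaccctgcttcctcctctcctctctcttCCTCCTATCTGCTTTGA
IRF9 probe 2: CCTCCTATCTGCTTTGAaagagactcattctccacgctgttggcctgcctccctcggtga
STAT2 probe: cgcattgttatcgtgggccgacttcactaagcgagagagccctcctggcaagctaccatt
JAK2 probe: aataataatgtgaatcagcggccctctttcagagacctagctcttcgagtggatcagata
IRF9 probe 1 lies at chr8:4156815-4156874 and IRF9 probe 2 at chr8:4156858-4156917, both on the plus strand. The STAT2 probe lies at chr10:645979-646167 on the minus strand. Its 60 bases are spread over 189 genomic bases, so it crosses an intron. The JAK2 probe lies at chr1:93435694-93435753 on the plus strand. The annotation does not say which exon or UTR a probe falls in.

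Mixed culture was compared with culture alone to see how RasV12 cells grown among normal cells differed from RasV12 cells in single culture. None of the 13 probes passed the threshold: 0 were called higher and 0 lower at an adjusted p under 0.05 (limma, two-sided, Benjamini-Hochberg over 26535 tested probes), where 11.2% of all tested probes were called, 5.5% higher and 5.72% lower. At an unadjusted p under 0.05 there were 2 of the 13, IRF9 probe 2 and JAK2 (limma), beside 31.4% of all tested probes, and the methods' t-test called 0 after adjustment. All 13 probes were well above background on all 6 arrays, so none was lost to dimness. Their differences ran from -0.46 to 0.35 on the log2 scale with a median of 0.05, beside a median of 0.00 over all tested probes (-0.00371 before rounding). The median size of the difference, regardless of sign, was 0.10 for the 13 probes and 0.17 for all tested probes. The median SD between arrays of one group was 0.10 for the 13 probes and 0.13 for all. Non-overlapping groups were seen at 2 of the 13 probes, against 37.2% of all tested probes.

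**Figure D1:**
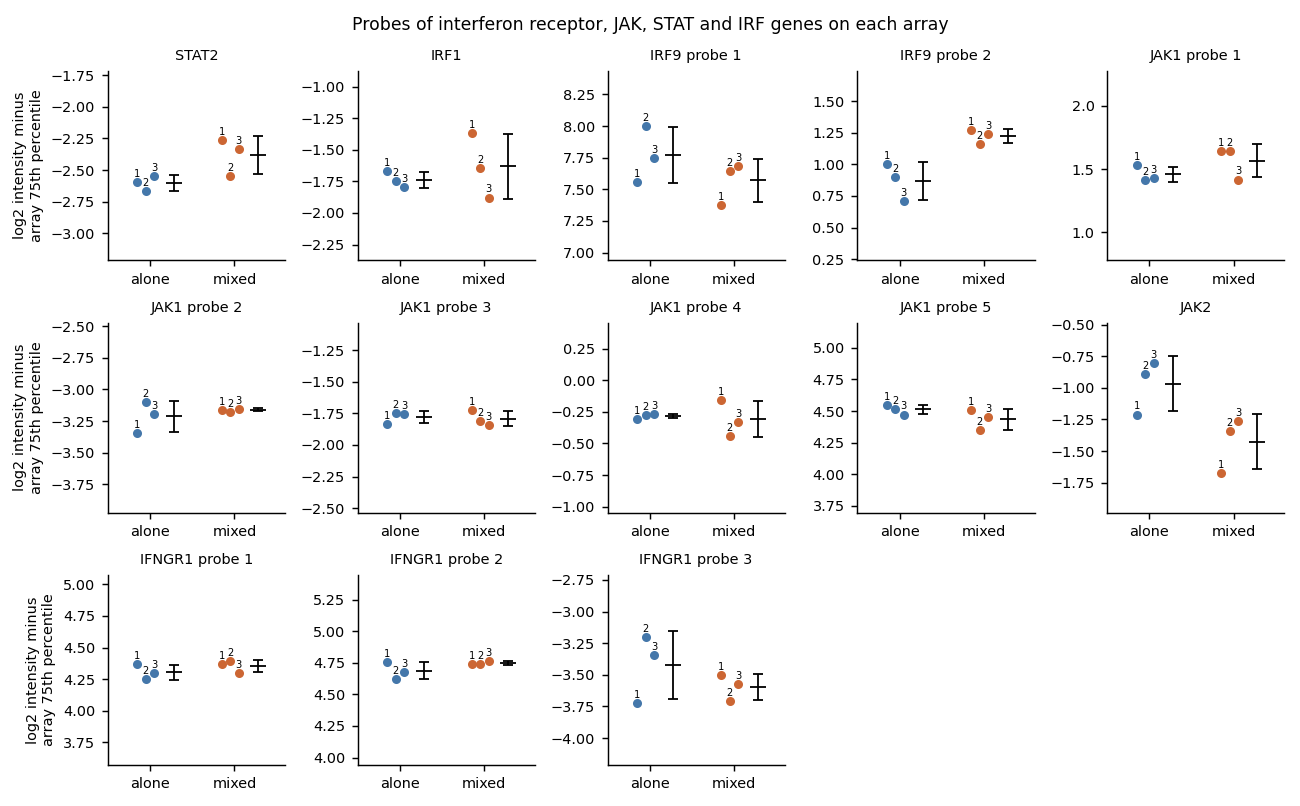
Each panel is 1 of the 13 probes, with the log2 intensity minus the 75th percentile of the array on an axis of equal span, the 3 alone arrays in blue and the 3 mixed arrays in orange, each marked by its replicate number, and the mean ± SD in black. Only for IRF9 probe 2 and JAK2 do the groups not overlap.

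STAT2 carries the transactivation domain of ISGF3. The STAT2 level was -2.59, -2.67 and -2.55 on the alone arrays and -2.26, -2.55 and -2.33 on the mixed arrays. Mixed replicates 1 and 3 were above every alone array and mixed replicate 2 lay level with the highest of them, so the groups overlapped. The log2 difference was 0.22 ± 0.10 (SE), a fold of 1.17 (95% interval 0.994 to 1.37, adjusted p = 0.172, limma).

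IRF9 is the DNA-contacting subunit of the complex. At IRF9 probe 2 the level was 1.00, 0.90 and 0.71 on the alone arrays and 1.27, 1.16 and 1.24 on the mixed arrays. All 3 mixed arrays were above all 3 alone arrays (two-sided exact permutation p = 0.1, the lowest possible with 3 against 3). The log2 difference was 0.35 ± 0.10 (SE), a fold of 1.28 (95% interval 1.09 to 1.496, adjusted p = 0.0611, limma). This probe passed the threshold with quantile normalization (adjusted p = 0.0499, limma) and with normexp background correction (adjusted p = 0.0337, limma). It also passed without alone replicate 1 (0.42, adjusted p = 0.0239, limma), where 26.4% of all tested probes were called. Over its 14 alternatives the adjusted p ranged from 0.0239 to 0.321 (limma).

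IRF9 probe 1, annotated with the same gene, gave another picture. Its processed intensities were 104800 to 179200 units, beside 1054 to 1525 at probe 2. Whether both probes read IRF9 RNA alone was not tested. The level at probe 1 was 7.56, 8.0 and 7.75 on the alone arrays and 7.38, 7.65 and 7.69 on the mixed arrays. The groups overlapped, with alone replicate 2 the highest and mixed replicate 1 the lowest. The log2 difference was -0.20 ± 0.14 (SE, adjusted p = 0.374, limma). Across the 6 arrays the IRF9 probes correlated at r = -0.60, a description over arrays that also differ by group and slide. The direction for IRF9 thus depended on the probe, with 0 of 2 past the threshold. A further probe, described as IRF9 but carrying another name, was outside the rule and was well above background on 0 arrays.

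IRF1, a transcription factor induced by interferon-γ, had 1 probe, at chr11:20776197-20776710 on the minus strand, whose 60 bases cross an intron. Its level was -1.67, -1.75 and -1.79 on the alone arrays and -1.37, -1.65 and -1.88 on the mixed arrays. The mixed arrays held both the highest and the lowest value. The log2 difference was 0.10 ± 0.13 (SE, adjusted p = 0.632, limma).

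JAK2, a kinase bound to IFNGR2 and to many cytokine receptors, had the largest difference of the 13 probes. Its level was -1.21, -0.89 and -0.80 on the alone arrays and -1.67, -1.35 and -1.26 on the mixed arrays. All 3 mixed arrays were below all 3 alone arrays (two-sided exact permutation p = 0.1), and replicate 1 was the lowest in both groups. The log2 difference was -0.46 ± 0.15 (SE), a fold of 0.728 (95% interval 0.567 to 0.934, adjusted p = 0.0954, limma). Taken by replicate number, the differences were -0.46, -0.46 and -0.46, with an SD of 0.00178. This was the smallest such SD of the 13 probes, the others running from 0.07 to 0.36, and what lies behind it was not tested. A fit with the replicate block draws on this same closeness. With the replicate number as a block the JAK2 probe passed the threshold (adjusted p = 0.0353, limma). It also passed without alone replicate 1 (-0.58, adjusted p = 0.0349, limma), where 26.4% of all tested probes were called. Over its 14 alternatives the adjusted p ranged from 0.0349 to 0.262.

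JAK1, which serves both the type I and the interferon-γ receptor, had 5 probes spread over 29965 bases of chromosome 5, from 45378591 to 45408555, all on the plus strand. They are numbered here from the 5′ end of the gene. JAK1 probe 5, the most 3′, read 4.55, 4.52 and 4.47 on the alone arrays and 4.51, 4.35 and 4.45 on the mixed arrays, and its groups overlapped. Its log2 difference was -0.08 ± 0.07 (SE, adjusted p = 0.517, limma; 95% interval -0.26 to 0.10). Probes 1 to 4 differed by 0.11, 0.05, -0.02 and -0.02, with adjusted p from 0.448 to 0.905 (limma). The groups overlapped at each of the 5 probes, and with spike-in scaling, which lowers the median of all probes by 0.16, all 5 differences were below 0. Together the 95% intervals of the 5 probes spanned -0.26 to 0.32.

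IFNGR1, the chain that binds interferon-γ, had 3 probes on the minus strand of chromosome 1. IFNGR1 probes 1 and 2, at chr1:29644621-29644679 and chr1:29644727-29644786, are near neighbours. Probe 2 read 4.76, 4.62 and 4.68 on the alone arrays and 4.74, 4.74 and 4.76 on the mixed arrays. Mixed replicate 3 was level with the highest alone array and the other mixed arrays lay just below it, so the groups overlapped, and the log2 difference was 0.06 ± 0.07 (SE, adjusted p = 0.581, limma). Probe 1 differed by 0.05 ± 0.07 (SE, adjusted p = 0.668, limma). Probe 3, at chr1:29655043-29655102 and so further 5′, read -3.72, -3.20 and -3.35 on the alone arrays and -3.50, -3.71 and -3.57 on the mixed arrays. It also overlapped between groups, at -0.17 ± 0.14 (SE, adjusted p = 0.458, limma), and correlated with probes 1 and 2 at r = -0.86 and -0.91 over the 6 arrays.

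**Figure D2:**
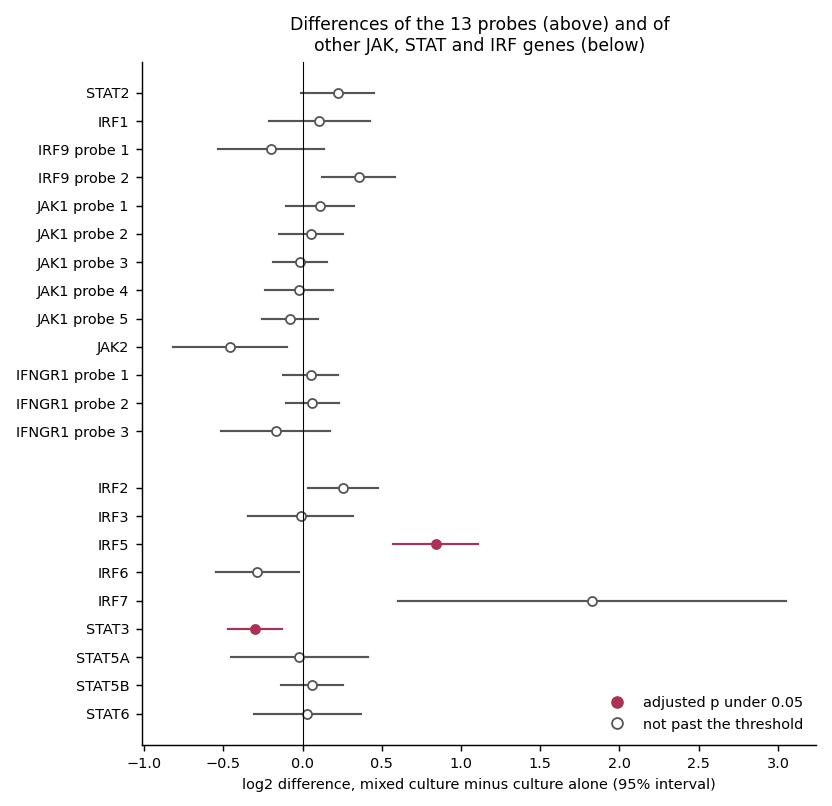
Points are log2 differences, mixed minus alone, with 95% intervals from limma, for the 13 probes (above) and for the highest-mean probe of 9 other JAK, STAT and IRF genes (below); filled points passed the adjusted threshold. The 13 probes are all open, and the intervals of IRF9 probe 2 and JAK2 leave out 0, whereas IRF5 and STAT3 are filled.

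For every gene below, 1 probe was used, that with the highest mean. At that probe 11.6% of 10217 gene symbols were called, 5.2% higher and 6.42% lower, and the median difference was -0.00640. Of 14 other JAK, STAT and IRF genes, 11 had a probe and 9 were tested. The count called was 2, of which IRF5 rose and STAT3 fell, and the median difference of the list was 0.03. IRF4 and IRF8, the factors of lymphoid and myeloid cells, were well above background on 0 arrays.

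IRF5, a factor acting downstream of Toll-like receptors, read -2.51, -2.69 and -2.71 on the alone arrays and -1.67, -1.99 and -1.73 on the mixed arrays. The groups were well apart, and the difference was 0.84 ± 0.11 (SE, adjusted p = 0.0160, limma), a fold of 1.79. STAT3, which carries signals of the IL-6 family, fell at its highest-mean probe by 0.30 ± 0.07 on the log2 scale (SE, adjusted p = 0.0447, limma). It missed the threshold with the replicate block (adjusted p = 0.0604, limma), and its other 3 probes were not called.

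IRF7, the interferon-induced amplifier of type I interferon production, had the largest difference of the list and did not pass the threshold. It read 3.51, 1.55 and 1.64 on the alone arrays and 4.21, 3.81 and 4.16 on the mixed arrays. Alone replicate 1 lay close to the mixed arrays, though still below them. The difference was 1.83 ± 0.51 (SE, adjusted p = 0.0662, limma), with the replicate block it passed (adjusted p = 0.0499, limma), and without alone replicate 1 it was 2.47 (adjusted p = 0.00350, limma). Without alone replicate 1 the share of all probes called was also higher, at 26.4%, and that of gene symbols was 26.6%.

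Without alone replicate 1 the list had 3 called genes, and without alone replicate 2, alone replicate 3, mixed replicate 2 or mixed replicate 3 it had 0, while without mixed replicate 1 only IRF5 was called. Leaving out the same 4 arrays left 0.09%, 0.0263%, 0.0338% and 0.045% of all probes called.

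Among the ligands, interferons and other receptor chains, 6 of 16 genes had a probe, 2 were tested and 0 were called (1 at an unadjusted p under 0.05, limma, beside 32.7% of all gene symbols; 0 by the methods' t-test after adjustment). IFNB1, IFNG and IFNLR1 were well above background on 0 arrays. IFNE, an epithelial type I interferon, was so on some arrays only and was not tested. IFNK, another epithelial interferon, read -1.44, -0.24 and -0.21 on the alone arrays and -1.98, -1.44 and -1.39 on the mixed arrays, with alone replicate 1 inside the mixed range. Its difference was -0.98 ± 0.35 (SE, adjusted p = 0.118, limma). It was called lower with the replicate block (adjusted p = 0.0372, limma) and without alone replicate 1 (-1.38, adjusted p = 0.0104, limma).

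Feedback inhibitors damp the pathway: SOCS proteins block JAKs, PIAS proteins restrain STATs, PTPN enzymes remove phosphate, and USP18 shuts off IFNAR2. All 15 genes were tested and 0 were called (3 at an unadjusted p under 0.05, limma, beside 32.7% of all gene symbols; 0 by the methods' t-test after adjustment), with a median difference of -0.03. USP18, itself interferon-induced, read -1.30, -2.41 and -2.46 on the alone arrays and -0.76, -1.18 and -1.03 on the mixed arrays. The groups did not overlap, with alone replicate 1 nearest to the mixed arrays, and the difference was 1.07 ± 0.32 (SE, adjusted p = 0.0755, limma). USP18 was called higher with the replicate block (adjusted p = 0.0416, limma). Without alone replicate 1, 3 of the 15 genes were called, beside 26.6% of all gene symbols in that setting. USP18 (1.45, adjusted p = 0.00499, limma) and SOCS1 were higher, and PIAS3 lower.

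Many targets of the pathway were higher in mixed culture. Of 39 ISGF3 target genes, 37 had a probe and 35 were tested; 22 were called, all 22 higher in mixed culture, and the median difference was 0.94. The list was drawn up with earlier results of these data known, so its count is a description. The 6 largest called differences were those of CMPK2, a mitochondrial nucleotide kinase (2.16 ± 0.43, adjusted p = 0.0313, limma), MX1, a GTPase that blocks viruses (2.09 ± 0.38, adjusted p = 0.0254, limma), IFIT2, which binds viral RNA (1.99 ± 0.24, adjusted p = 0.0136, limma), RSAD2, or viperin (1.64 ± 0.14, adjusted p = 0.0103, limma), MX2 (1.58 ± 0.33, adjusted p = 0.0354, limma) and PARP14 (1.53 ± 0.32, adjusted p = 0.0353, limma), each ± SE. With the replicate block MX1 missed the threshold (adjusted p = 0.0504, limma). With normexp background correction the differences of IFIT2 and RSAD2 were smaller, at 0.76 and 0.82. Those of CMPK2, MX1, MX2 and PARP14 were then 1.93, 2.03, 1.33 and 1.39.
CMPK2 read 0.12, -1.56 and -1.43 on the alone arrays and 1.29, 0.99 and 1.34 on the mixed arrays, so alone replicate 1 was the highest alone array by far but below every mixed array. IFIT2 was well above background on 2 of the 3 alone arrays and on all 3 mixed arrays. Non-overlapping groups were seen for 29 of the 35 genes, 28 of them higher in mixed culture, against 39.4% of all gene symbols in either direction. Without alone replicate 1, 28 of the 35 were called, beside 26.6% of all gene symbols. The count fell to 6 without mixed replicate 1, to 2 without alone replicate 2, and to 0 without alone replicate 3, mixed replicate 2 or mixed replicate 3.

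**Figure D3:**
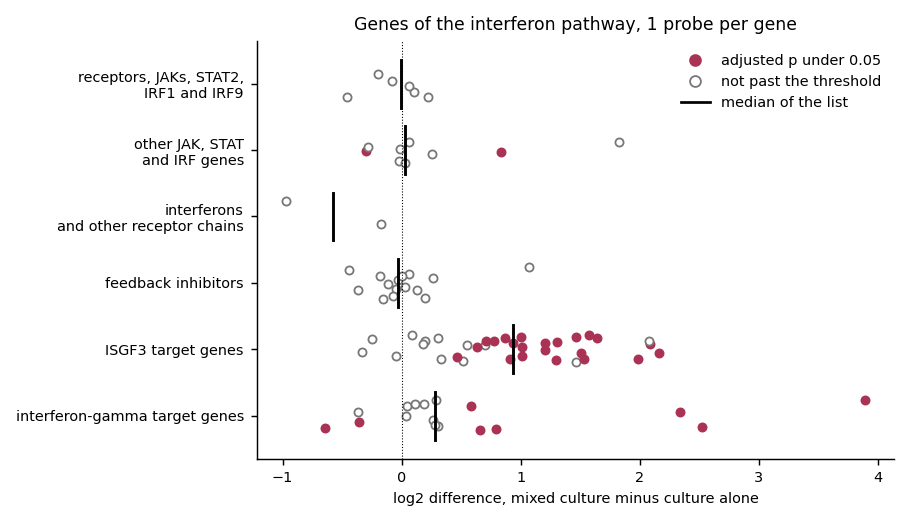
Each point is 1 gene at its highest-mean probe, placed by its log2 difference, mixed minus alone, with bars at list medians; filled points passed the adjusted threshold. The 6 genes of the receptors, JAKs, STAT2, IRF1 and IRF9 are open and run from -0.46 to 0.22, whereas the 22 filled ISGF3 targets all lie above 0. IRF9 is placed by its probe 1 (-0.20), and IRF9 probe 2 (0.35) is not shown.

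Of 25 interferon-γ target genes, 18 had a probe and 17 were tested; 8 were called, 6 higher and 2 lower, with a median difference of 0.28. IDO1, the tryptophan-degrading enzyme, read -4.38, -2.74 and -2.44 on the alone arrays and -1.16, 1.53 and 1.77 on the mixed arrays. Replicate 1 was the lowest in both groups, and the difference was 3.90 ± 0.87 (SE, adjusted p = 0.0392, limma), a fold of 14.9. Without mixed replicate 1 it was 4.83, a fold of 28.5 (adjusted p = 0.0222, limma), and without any one of the other 5 arrays it missed the threshold, at 3.30 without alone replicate 1 (adjusted p = 0.0535, limma) and with adjusted p up to 0.131. CIITA, the master regulator of MHC class II genes, rose by 2.52 ± 0.22 (SE, adjusted p = 0.0103, limma), and NLRC5, its class I counterpart, by 2.34 ± 0.31 (SE, adjusted p = 0.0160, limma).
The peptide transporter subunit TAP1 (0.79) and the immunoproteasome subunit PSMB9 (0.66) also rose, with adjusted p of 0.0279 and 0.0426 (limma), and TAP1 missed the threshold with the replicate block (adjusted p = 0.0528, limma). CD274, which encodes PD-L1, fell by 0.64 ± 0.12 on the log2 scale (SE, adjusted p = 0.0263, limma), and the adhesion molecule ICAM1 fell by 0.36 ± 0.07 (SE, adjusted p = 0.0307, limma). CD274 lies on chromosome 1 of canFam3, 161956 bases from the JAK2 probe. PSME2, also on the list and not called, lies closer to IRF9, at 19481 bases. Whether position bears on these differences was not tested. Without alone replicate 1 the count was 10, beside 26.6% of all gene symbols called. Without mixed replicate 1 the count was 4, and without any one of the other 4 arrays it was 0.

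**Figure D4:**
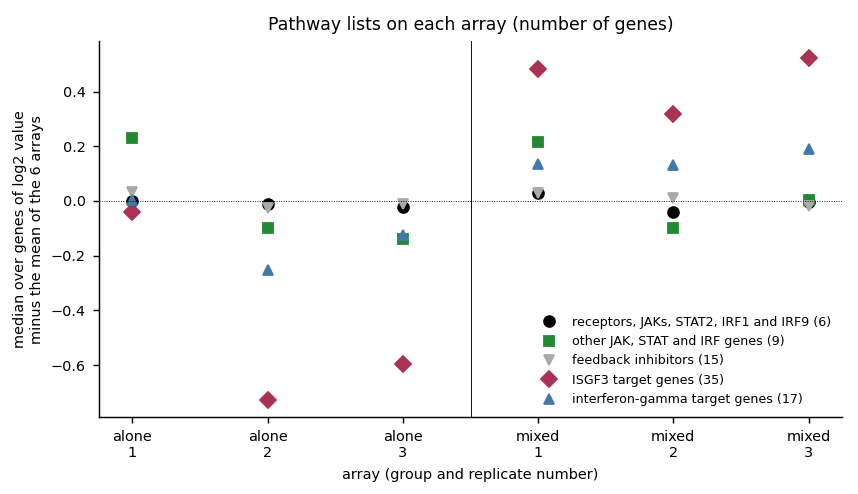
For each array, the median over the genes of a list of the log2 value minus that gene's mean over the 6 arrays; the number of genes is given in the key. The black points of the receptors, JAKs, STAT2, IRF1 and IRF9 stay between -0.04 and 0.03, whereas the ISGF3 targets run from -0.73 to 0.52, with alone replicate 1 at -0.04. A median near 0 does not show the spread between genes: the differences behind the black points ran from -0.46 (JAK2) to 0.22 (STAT2). IRF9 enters the black points by its probe 1 only, and IRF9 probe 2 (0.35) is left out.

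Output genes of the Ras-MAPK pathway, which RasV12 drives, moved in both directions: of 10 tested, CCND1 and FOSL1 were called lower and EGR1 higher. This was beside 11.6% of all gene symbols called. Of the 10 differences, 4 were above 0 and 6 below, with a median of -0.34. Their highest-intensity probes summed to 78526 to 89256 units on the alone arrays and 66448 to 77692 on the mixed arrays. These sums did not overlap, but they and the sums below are processed intensities that were not scaled between arrays. On the scaled values used elsewhere here, the median deviation of the 10 genes was 0.09, 0.09 and 0.16 on the alone arrays. On the mixed arrays it was 0.24, -0.11 and -0.12, so the scaled medians of the groups overlapped. The highest-intensity probes of the 7 leukocyte markers summed to 309 to 389 units on the alone arrays and 296 to 353 on the mixed arrays, with 4 genes tested and 0 called (0 at an unadjusted p under 0.05, limma; 0 by the methods' t-test). The 7 fibroblast and endothelial markers summed to 3220 to 5233 and 3577 to 4911 units, with 5 tested and 0 called (likewise 0 and 0). The part of these markers in the results above was not tested. Normal MDCK cells carried over in the sort would share the epithelial markers, and in bulk samples fewer cells of a type and less RNA per cell cannot be told apart.

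Genes whose pattern over the 6 arrays was most like that of each member's highest-mean probe were sought among 10208 symbols. For STAT2 they were RASSF1 (r = 0.99), TAPBP (0.99) and ZYG11B (0.98), and for JAK2 they were POLR3D (1.00), MAU2 (1.00) and NSUN6 (0.99). TAPBP, the tapasin of peptide loading, is on the interferon-γ target list. IRF9 probe 1 was closest to CD34 (0.99), PIKFYVE (0.99) and LLGL2 (0.98), none of them on the interferon lists. For IRF1 the closest were PLEKHG2 (1.00), NANOS3 (0.98) and DTX1 (0.98), for JAK1 WBP1L (0.98), ACVR1 (0.98) and DHX8 (0.97), and for IFNGR1 NASP (0.99), SPDL1 (0.99) and PSMC5 (0.99). With 6 arrays and this many symbols, high correlations are common, and the values are a description.

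**Figure D5:**
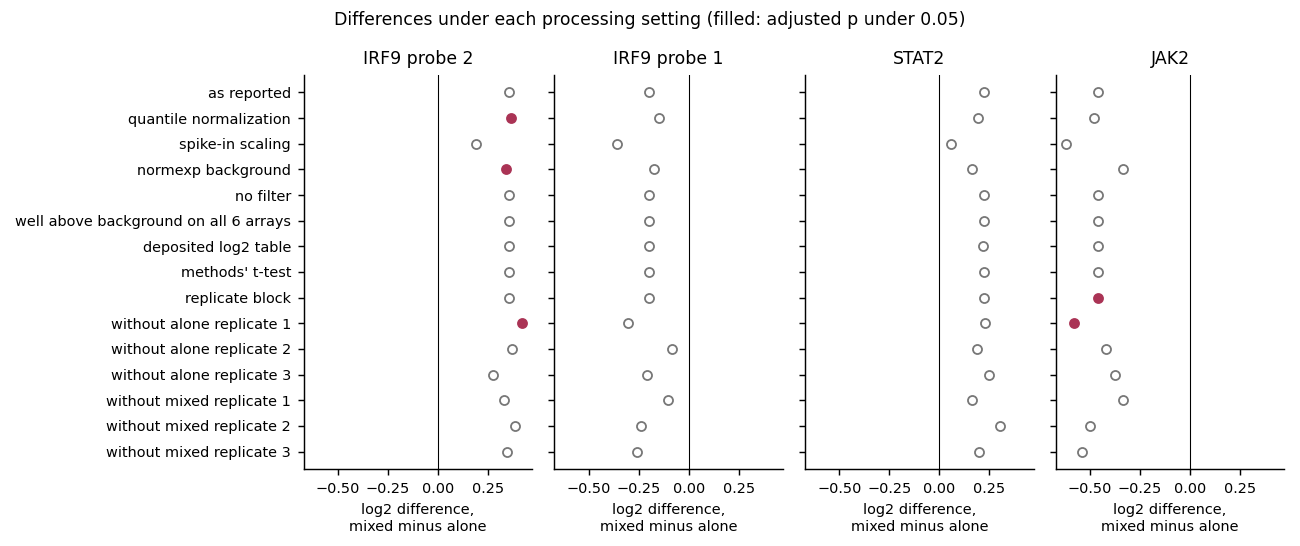
Log2 differences, mixed minus alone, of the IRF9 probes, STAT2 and JAK2 under the reported setting and 14 alternatives, 1 row each; filled points passed the adjusted threshold. IRF9 probe 2 and STAT2 stay above 0 in every row and IRF9 probe 1 and JAK2 below 0, while filled points appear in 3 rows for IRF9 probe 2 and 2 rows for JAK2.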

How the data were processed

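The authors deposited, for each of 6 one-colour canine arrays, scanner output with spot intensities on canFam3, background-corrected and detrended by the scanner software, and a table of log2 values that equals the log2 processed intensity minus the array's 75th percentile; which other steps made it is not given in the sources used here. From the intensities, control and outlier spots were left out, spots of a probe averaged, and log2 values taken minus the 75th percentile. Tested probes were those well above background on each array of 1 group or both. Mixed and alone were compared with limma 3.58.1 (lmFit, eBayes; R 4.3.3) over 26535 probes, two-sided; p-values were adjusted by Benjamini-Hochberg and called under 0.05. The methods' t-test is the unpaired equal-variance test. Tables and figures used Python 3.11.15, pandas 2.3.3, scipy 1.17.1 and matplotlib 3.10.9. The limma step was first tested on simulated data.

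Names came from the array's GeneName, and for 12 probes of the lists from its description. The 9 genes and the lists were chosen with earlier results of these data known; 1 gene of a list is not reported here. All probes of the 9 genes are named; of each list, at most 6 called genes by size and those called against the list's direction; others named for a value were chosen after it was seen. Same-numbered arrays deviated together from their group means (r = 0.35, 0.16 and 0.30 over 26535 probes), each over 0.1, while arrays with different numbers correlated at -0.33 to 0.24, alone replicate 2 with mixed replicate 3 being closer (0.24) than with its own number; by the rule of 0.1 the numbers, which are also slide positions, were taken to pair the samples, and a fit with the replicate block is one of the alternatives.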

Additional observations from a re-analysis of the deposited data

How the results depend on the processing

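The count of the 13 probes called higher was 1 with quantile normalization and 1 with normexp background correction, in both cases IRF9 probe 2, and 0 to 1 when single arrays were left out. The count called lower was 1 with the replicate block, JAK2, and 0 to 1 when single arrays were left out. With spike-in scaling, the difference of IRF1 turned to -0.0567, JAK1 probes 1 and 2 to -0.0519 and -0.11, and IFNGR1 probes 1 and 2 to -0.11 and -0.10; with normexp, JAK1 probes 3 and 4 turned to 0.0211 and 0.0541. Leaving out single arrays turned the sign of IRF1 (range -0.026 to 0.23), JAK1 probe 2 (-0.0156 to 0.11), JAK1 probe 3 (-0.0487 to 0.0089) and JAK1 probe 4 (-0.10 to 0.0419). None of these was called before or after.

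Other JAK, STAT and IRF genes called were 2, and 1 with spike-in scaling, 0 with no filter, 0 by the methods' t-test, 1 with the mean over a gene's probes and 0 to 3 when single arrays were left out. Interferons and receptor chains had 1 with the replicate block and 0 to 2 when single arrays were left out. Feedback inhibitors had 1 with normexp, 1 with the replicate block and 0 to 3 when single arrays were left out. ISGF3 targets had 0 with no filter, 2 by the methods' t-test and 0 to 28 when single arrays were left out. Interferon-γ targets had 2 with spike-in scaling, 0 with no filter, 2 by the methods' t-test and 0 to 10 when single arrays were left out. With no filter 12 of 43603 probes were called in all. The cause of these changes was not tested. No fit with slide as a random block was possible, because slide and group coincide. The replicate block changed the call of no member other than JAK2.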

Other observations

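IRF9 probe 1 and IFNGR1 probe 3, whose differences had the opposite sign to the other probe or probes of the same gene, correlated with each other at r = 0.66 over the 6 arrays. They lie on different chromosomes and were chosen after their values were seen. Each read highest on alone replicate 2.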
